A study of Mus musculus with 2 samples.

Results

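Smooth muscle and actomyosin contraction genes were compared between ovaries with and without an activated hedgehog pathway at 2 days of age. The set holds 36 genes, chosen by name with earlier results of these data known, so comparisons of it with all genes are descriptions only. They are actins, myosins, the proteins that bind and regulate them, the adhesion proteins that anchor them and the factors that switch them on. Of these, 35 had at least 1 probe set with a single gene symbol in the annotation of the array, out of 18193 genes named in this way. They held 85 of the 34945 probe sets with a single symbol, on an array of 45101. Rock2 had no such probe set and was not analysed here. The control pool came from mice of genotype Amhr2(+/+)-SmoM2, which carry the SmoM2 allele and no Cre. The mutant pool came from Amhr2(cre/+)-SmoM2 mice, which carry the same SmoM2 allele and Cre at 1 copy of Amhr2, the gene of the anti-Müllerian hormone receptor. SmoM2 is Smoothened, the transducer of the hedgehog signal, locked in its active state, and Amhr2 is active in gonadal somatic cells. Cre, the changed Amhr2 copy and SmoM2 activation differ between the pools together and cannot be told apart. RNA from the ovaries of 8 mice was combined in equal amounts for each genotype and hybridised to 1 array, so no value below has a replicate check and no p-value was computed.

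Contractile cells shorten when myosin filaments pull on actin filaments. In smooth muscle the myosin light chain kinase starts the cycle by phosphorylating the light chain and a phosphatase ends it. Actin filaments end at adhesion plaques built from talin, vinculin, alpha-actinin and zyxin. Serum response factor and its partner myocardin switch on much of the smooth muscle set through a DNA element, the CArG box. In the ovary these genes are known from vessel walls and, later in follicle growth, from the outer theca layer. Many of the actomyosin genes are also used by every cell that moves or divides.

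Values are signal intensities in arbitrary units. A signal minimum was set at 80.7, the median over both arrays together. A probe set passed as measured if either pool was at or above it, and the one with the highest mean over both pools, called the brightest, stood for its gene. The log2 ratio is that of mutant over control after 22.2, the 25th percentile of all values, was added to both, so it understates the change of dim genes. A fold is the plain ratio of the 2 signals, and it is a lower bound against 80.7 where the dimmer signal lay below that. In the absence of replicates, the only spread available was that between probe sets of 1 gene, with an SD of 0.38 on the log2 ratio over 13386 probe sets of 5118 genes. Among the contraction genes alone that SD was 0.53 (47 probe sets of 14 genes).

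Part of the contraction set was higher in the mutant pool, led by Pdlim3, Actg2 and Synpo2 at 3.18-fold to 3.74-fold, followed by Tpm2, Acta2, Mylk and Smtn. Of 32 measured genes these 7 (21.9%) were at least 1.5-fold higher by the log2 ratio, against 9.32% of all 12308 measured genes. Des and Myocd (6.25%) were at least 1.5-fold lower, against 7.90% of all genes, although for Des the bound is only 1.13-fold. At 2-fold, 4 genes were higher (3.21% of all genes were) and 1 was lower (1.40%), which is Des, counted by its log2 ratio alone. The other 23 lay within 1.5-fold. The median log2 ratio was 0.24 for the contraction genes and -0.02 for all measured genes, and 25 of the 32 ratios were above 0, against 47.5% of all genes. Cnn1, Lmod1 and Kcnmb1 did not pass the signal minimum, and Des passed through the control pool alone. With no signal minimum, 7 of 35 genes were higher and 2 lower (20.0% and 5.71%), against 11.0% and 10.2% of all genes. Of the 18 spiked hybridisation controls 17 were brighter on the mutant array, with a median log2 ratio of 0.23. Centring on them moved the median of all genes to -0.25 and left 4 contraction genes higher (12.5%, against 4.96% of all genes). It left 2 lower (6.25%, against 18.8%), with 17 of 32 ratios above 0. The share of calls that were higher went from 77.8% to 66.7% for the contraction genes and from 54.1% to 20.9% for all genes.

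**Figure D1:**
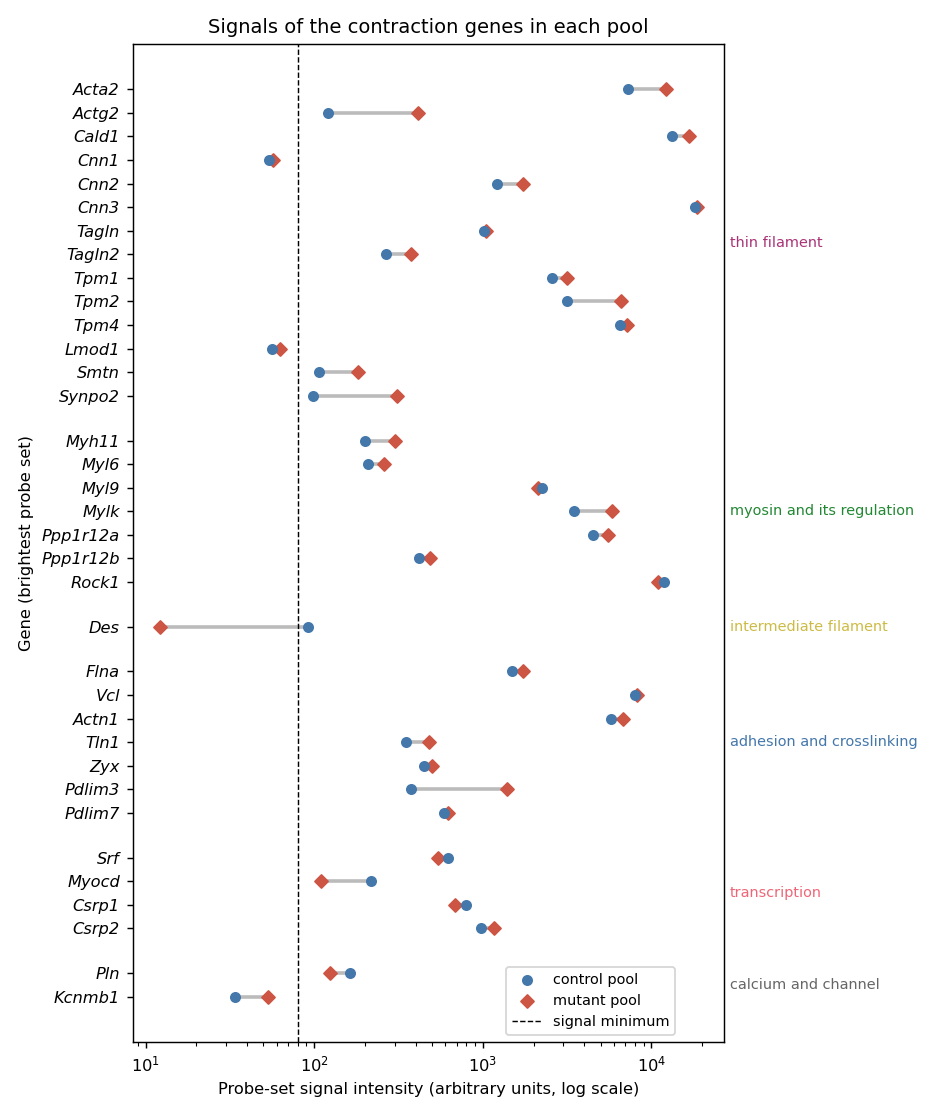
Signal intensity (log axis, arbitrary units) of the brightest probe set of each contraction gene in the control pool (circles) and the mutant pool (diamonds), ordered by role, with 1 array per pool and a dashed line at the signal minimum of 80.7. The long grey links to the right belong to Actg2, Synpo2 and Pdlim3, and the long link to the left is that of Des, whose mutant signal was 12.1.

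None of the 4 transcription genes was at least 1.5-fold higher, against 9.32% of all genes. Their median log2 ratio was -0.20, against -0.02 for all genes. Myocd (Entrez gene 214384) encodes myocardin, the coactivator that drives smooth muscle genes. Its signal was 217 in controls and 110.3 in mutants, 1.97-fold lower, and its other probe set lay under the signal minimum at 13.3 and 2.2. Here and below, a pair of values gives the control pool first and the mutant pool second. Srf (20807), the factor that binds the CArG box, read 618.5 and 539 on a probe set shared between transcripts and 87.2 and 92.8 on the other, log2 ratios of -0.19 and 0.07. Csrp1, a LIM-domain protein that bridges serum response factor and GATA factors, read 798 and 689, with a log2 ratio of -0.21, and lay under the minimum on a second probe set at 65.5 and 28.0. Its relative Csrp2 read 979 and 1167, with 0.25. On the brightest probe sets, only Myocd among these 4 genes differed by more than the probe-set SD of 0.38.

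The 250 bases before the start of each gene were searched in the RefSeq promoter table (GRCm38.p6) for the CArG box, whose 6 central bases are all A or T, on both strands. The table held such windows for 30 of the 36 genes, and Actg2, Tagln, Myh11, Rock1, Myocd and Csrp2 are named only. A CArG box was present for 5 genes, Cnn2, Myl6, Myl9, Srf and Vcl (5 of 34 windows), and in 1.47% of all 32851 windows. Allowing 1 central G or C, a setting chosen after the values were seen, added Acta2 and Pdlim3, for 7 genes, and was met by 8.59% of all windows. The sequences shown are those of Srf itself, of Acta2 and Pdlim3, which were higher, and of 3 genes with a strict box that lay within 1.5-fold. Capitals mark the matches, and all are written 5′ to 3′ on the strand of the gene.
Acta2, chr19:34255374-34255482, minus strand, 1 central G or C: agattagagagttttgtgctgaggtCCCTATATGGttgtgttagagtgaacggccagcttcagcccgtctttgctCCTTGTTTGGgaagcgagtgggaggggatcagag
Pdlim3, chr8:45885362-45885421, plus strand, 1 central G or C: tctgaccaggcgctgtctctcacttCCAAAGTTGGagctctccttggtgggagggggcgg
Srf, chr17:46556190-46556269, minus strand, strict: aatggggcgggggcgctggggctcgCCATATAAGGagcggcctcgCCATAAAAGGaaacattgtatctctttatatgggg
Cnn2, chr10:79988519-79988578, plus strand, strict: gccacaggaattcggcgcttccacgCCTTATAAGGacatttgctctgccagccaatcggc
Myl9, chr2:156775278-156775337, plus strand, strict: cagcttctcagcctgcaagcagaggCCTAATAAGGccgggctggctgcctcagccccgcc
Vcl, chr14:20929148-20929205, plus strand, strict: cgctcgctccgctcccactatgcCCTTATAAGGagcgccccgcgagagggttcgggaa

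The 5 genes with the strict box had log2 ratios of 0.52 (Cnn2), 0.30 (Myl6), 0.03 (Vcl), -0.08 (Myl9) and -0.19 (Srf), and 0 of the 5 reached 1.5-fold. Among all measured genes with that box 11.1% were higher, so nothing is read from these 5. Acta2 and Pdlim3, with the looser match, had 0.75 and 1.84. Over all 144 measured genes with a strict box the median log2 ratio was 0.02, with 10.4% at least 1.5-fold lower, and over the 9823 without it the median was -0.03. The muscle CAT element (CATTCC, either strand), a site of TEAD factors, was found for 11 of the 30 genes and in 12.6% of all windows. Of these genes Acta2, Mylk, Pdlim3 and Smtn were higher. Cald1, Flna, Ppp1r12b, Tagln2, Tpm1 and Vcl lay within 1.5-fold on their brightest probe sets, and Lmod1 was not measured. Among all measured genes with the element 9.97% were higher and 7.2% lower, so nothing is read from these matches. The GLI site (GACCACCCA, either strand), bound by the hedgehog transcription factors, was found for 0 of the 30 and in 0.225% of all windows. Each match is a match of letters in this window alone.

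Thin filament genes made up 5 of the 7 that were higher. All 12 measured genes of this group had log2 ratios above 0, with a median of 0.49, and 5 (41.7%) were at least 1.5-fold higher, against 9.32% of all genes. Of these 5, Acta2, Actg2, Smtn and Tpm2 rest on probe sets shared between transcripts. Without such probe sets 8 genes were measured, 6 of them above 0, with 1 higher, 1 lower and a median of 0.22. The shares of all genes were then 9.25% higher and 8.59% lower, with a median of -0.04. Centred on the spiked controls, 9 of the 12 stayed above 0 and 3 were at least 1.5-fold higher. Of all genes 4.96% were then higher, with a median of -0.25.

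Actg2 (11468), the enteric gamma actin of smooth muscle, read 120.1 and 413, 3.44-fold higher, on its only named probe set. Acta2 (11475), the alpha actin that defines vascular smooth muscle, read 7248 and 12203, 1.68-fold higher. Acta2 was measured by a probe set shared between transcripts, and its log2 ratio of 0.75 became 0.52, under 1.5-fold, when centred on the spiked controls. Its 2 other probe sets stayed under the signal minimum, 1 at 9.7 and 42.5 and the other at 16.5 and 29.7. Both smooth muscle actins were thus brighter in the mutant pool, each on a probe set that can detect several transcripts.

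Synpo2 (118449), a synaptopodin relative that bundles actin at the Z-disc and dense bodies, read 97.9 and 311.5, 3.18-fold higher. Its other 3 probe sets were all under the signal minimum and dimmer in the mutant pool, at 72.7 and 62.0, 52.6 and 51.4, and 35.3 and 16.6. The call for Synpo2 therefore rests on 1 of 4 probe sets. Smtn, the gene of smoothelin, which marks contractile smooth muscle cells, read 106.3 and 183, 1.72-fold higher on a single probe set, and its log2 ratio of 0.68 was 0.45 when centred on the spiked controls.

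The tropomyosins, which lie along actin and gate the access of myosin, differed from each other. Tpm2 (22004), the beta chain of muscle, read 3148.5 and 6563, 2.08-fold higher. Its 3 shared probe sets had log2 ratios of 1.05, 0.84 and 0.60, while the fourth, near the signal minimum at 62.2 and 86.9, had 0.37. Tpm1, the alpha chain, read 2566 and 3153 on its brightest probe set (log2 ratio 0.30), 660 and 516 on a shared one (-0.34), and 106.3 and 41.2 on a dim one (-1.02). Tpm4, a form also common outside muscle, read 6478 and 7140, with a log2 ratio of 0.14. Tpm2 was thus higher on all 4 probe sets and Tpm1 went both ways.

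Calponins and transgelins, actin-binding proteins with a shared fold, did not reach 1.5-fold on their brightest probe sets. Cnn1, the calponin restricted to smooth muscle, was under the signal minimum in both pools at 53.9 and 57.3. Cnn2 read 1206 and 1736, 1.44-fold higher. Cnn3 read 18041 and 18574 on its brightest probe set. Of its 6 probe sets 5 had log2 ratios from -0.27 to 0.23, and 1 set of the _x_at class stood apart at 1802 and 8330.5, 4.62-fold higher. Tagln (21345), an early smooth muscle marker also called SM22, read 1019 and 1042, a log2 ratio of 0.03. Its non-muscle relative Tagln2 read 266 and 374 on 1 shared probe set and 252 and 370 on another, 1.41-fold and 1.47-fold higher. The family thus showed 1 probe set of Cnn3 far from its 5 companions and the rest within 1.5-fold.

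Caldesmon, the gene Cald1 (109624), is an actin-binding brake on myosin made in a long smooth muscle form and a short general form. Its shared probe set read 13295 and 16590.5, a log2 ratio of 0.32. The 3 other measured probe sets were lower in the mutant pool, most of all the one at 899 and 405, 2.22-fold lower, and then 216 and 158 (log2 ratio -0.40) and 256 and 231 (-0.13). Which form each probe set detects is not given in the annotation used here. Lmod1, a leiomodin that starts new actin filaments in smooth muscle, was under the signal minimum in both pools at 56.6 and 62.5.

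**Figure D2:**
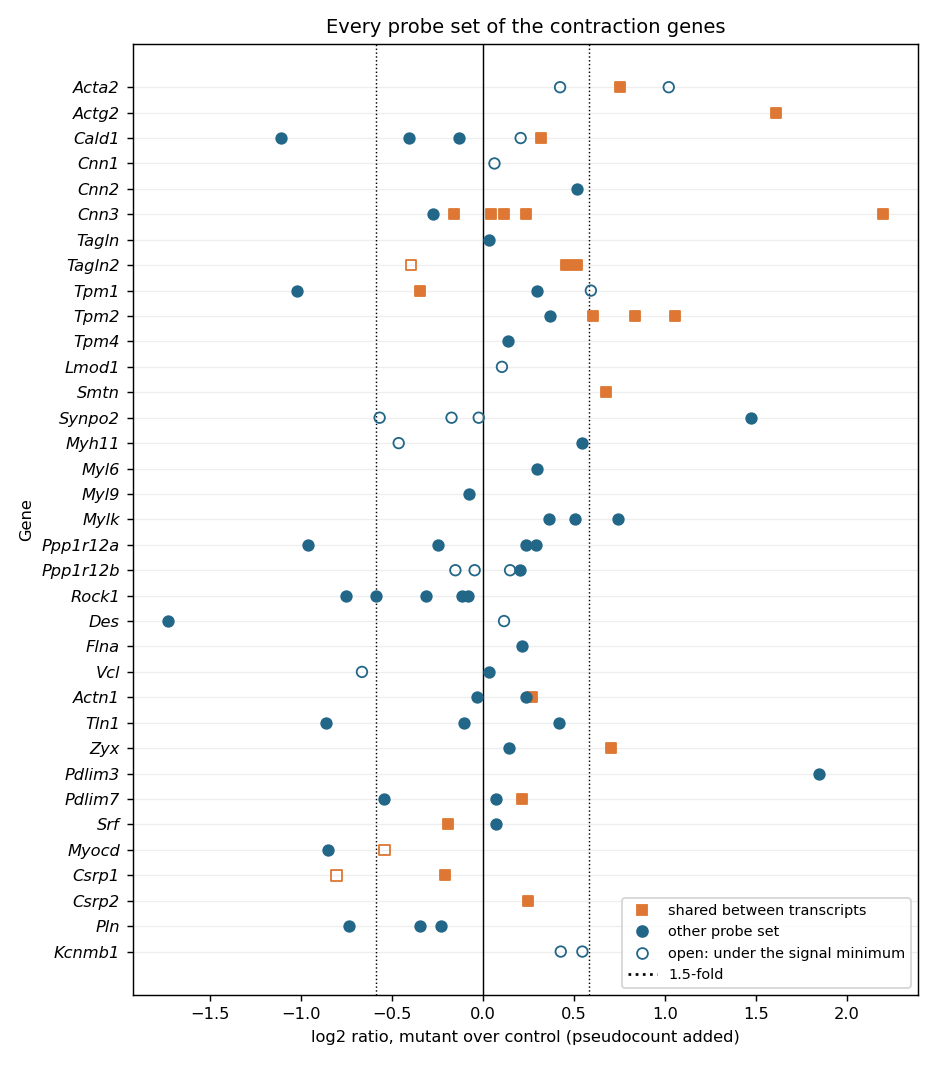
The log2 ratio of mutant over control for every probe set of the 35 genes, as squares for probe sets shared between transcripts and circles for the others, filled where measured and open where both signals lay under the minimum; dotted lines mark 1.5-fold. The squares lie mostly to the right of 0, while the filled circles past 1.5-fold lie mostly to the left, with Synpo2, Mylk and Pdlim3 as the exceptions.

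The myosin group had 7 measured genes with a median log2 ratio of 0.29, against -0.02 for all genes. Of these 1 was at least 1.5-fold higher (14.3%, against 9.32% of all genes) and 0 lower (against 7.90%). Centred on the spiked controls 4 of the 7 ratios were above 0, with the median of all genes at -0.25. Myh11 (17880), the heavy chain of smooth muscle myosin and the most specific marker of the lineage, read 199 and 301. That is 1.51-fold, but its log2 ratio of 0.54 did not reach the threshold once 22.2 was added to both signals. A second Myh11 probe set read 20.8 and 9.0, under the minimum. The light chains differed less: Myl9, the regulatory chain that the kinase phosphorylates, read 2242 and 2127, and Myl6, the essential chain, read 208 and 260.1. A further pair of Myl6 probe sets carried pseudogene symbols as well and had log2 ratios of 0.05 and 0.09.

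Mylk (107589), the myosin light chain kinase, was higher on each of its 3 probe sets. They read 3477 and 5833 (1.68-fold), 2443 and 3474 (1.42-fold), and 65.3 and 90.3 (at least 1.12-fold). Its log2 ratio of 0.74 fell to 0.51 when centred on the spiked controls. None of the 3 carries a suffix for shared transcripts, which sets Mylk apart from Acta2, Actg2, Smtn and Tpm2.

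The phosphatase subunits and Rock1 did not reach 1.5-fold on their brightest probe sets. Ppp1r12a (17931), the targeting subunit of myosin phosphatase, had 4 measured probe sets that disagreed. The brightest read 4506 and 5515 (log2 ratio 0.29) and another 202.5 and 242, whereas 2 others read 1230.1 and 1035 and, 2.03-fold lower, 503 and 247.5. Ppp1r12b, its relative in striated and smooth muscle, read 419 and 486, with 3 further probe sets under the minimum. Rock1 (19877), a kinase that acts on the phosphatase, was lower on all 5 probe sets, with log2 ratios from -0.75 to -0.08. Its brightest probe set read 11934 and 11008, and the one at 3550.4 and 2357 was 1.51-fold lower.

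Among adhesion and crosslinking genes all 7 were measured and had log2 ratios above 0, with a median of 0.22. After quantile normalisation 6 of the 7 stayed above 0, and 3 when centred on the spiked controls, where the median of all genes was -0.25. Pdlim3 (53318), a PDZ and LIM protein that binds alpha-actinin in muscle, read 373 and 1398, 3.74-fold higher. It had the highest log2 ratio of all contraction genes at 1.84, rank 107 from the top of 12308, on a single probe set that is not marked as shared. Its relative Pdlim7 read 588 and 619 on its brightest probe set, 142 and 90.6 on another (1.57-fold lower) and 93.5 and 112.2 on a shared one.

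The plaque proteins lay within 1.5-fold on their brightest probe sets. Vcl, vinculin, read 8025 and 8218, and 47.7 and 21.9 on a probe set under the minimum. Actn1, alpha-actinin, read 5720.0 and 6747, and its other probe sets 233 and 227 and, on the shared one, 72.9 and 92.2. Flna, the actin crosslinker filamin A, read 1495 and 1740 (log2 ratio 0.22). Zyx, zyxin, read 448 and 498, and its shared probe set 54.8 and 103.2. Tln1, talin, which couples integrins to actin, read 353 and 478 on the probe set with the highest mean (log2 ratio 0.42, above the probe-set SD) and 482 and 255 on another (-0.86), with the last at 95.6 and 87.4, so that its direction depends on the probe set.

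Desmin and the calcium group were lower or dim. Des (13346), the muscle intermediate filament, read 91.4 and 12.1, a log2 ratio of -1.73. As its mutant signal lay under the minimum, the difference is at least 1.13-fold, and its log2 ratio with values raised to the minimum was -0.14. Des was measured only through the control pool, and its second probe set read 29.3 and 33.6. Pln (18821), phospholamban, which restrains the calcium pump of the sarcoplasmic reticulum, read 164 and 124 on the probe set with the highest mean. Its other probe sets read 176.5 and 97.2 (1.82-fold lower) and 84.9 and 69.0, so all 3 were dimmer in the mutant pool. Taking the probe set with the highest single signal, a choice added after the values were seen, Pln and Tln1 count as lower too, for 4 genes lower (12.5%, against 8.12% of all genes). Kcnmb1, the smooth muscle subunit of the calcium-activated potassium channel, was under the minimum on both probe sets, with a highest signal of 53.1.

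**Figure D3:**
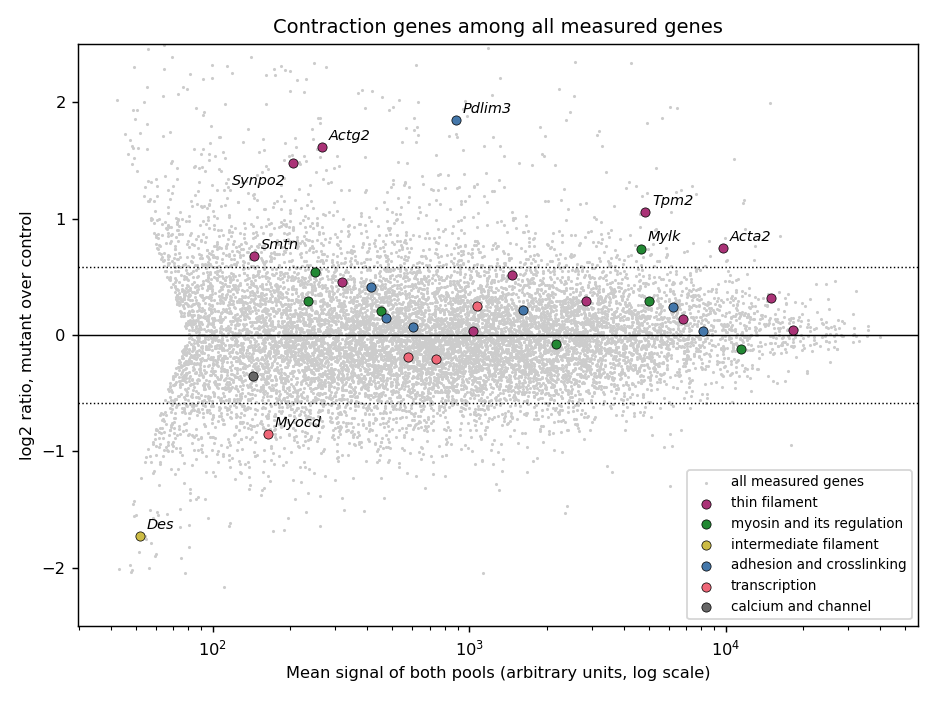
Mean signal of both pools (log axis, arbitrary units) against the log2 ratio of mutant over control, for 1 probe set of each measured gene (grey) and for the contraction genes coloured by role; dotted lines mark 1.5-fold, and 38 grey genes lie beyond the axis limit of 2.5. Tpm2, Mylk and Acta2 stand above 1.5-fold among bright genes, whereas Des and Myocd stand below it among dim ones.

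The direction of the set differed by kind of probe set. Suffixes _a_at, _s_at and _x_at mark probe sets that can detect several transcripts, of 1 gene or of several. Of 21 measured probe sets with such a suffix, 8 (38.1%) were at least 1.5-fold higher and 0 lower, against 8.67% and 8.48% of all 5616 such probe sets. They belonged to Acta2, Actg2, Cnn3, Smtn, Tpm2 (3 probe sets) and Zyx. Of the 44 other measured probe sets, 3 (6.82%) were higher and 9 (20.5%) lower, against 8.86% and 10.4% of all 14960. The higher ones were those of Mylk, Pdlim3 and Synpo2. Of the 9 lower, 2 were those of Rock1 and 1 each belonged to Cald1, Des, Myocd, Pln, Ppp1r12a, Tln1 and Tpm1. Some of these passed the signal minimum through 1 pool alone, Des, Tpm1 and 1 probe set of Rock1 through the control and Zyx through the mutant pool. With both pools at the minimum, 7 of 19 shared probe sets (36.8%) were higher and 0 lower, against 7.0% and 6.6% of all such probe sets. Of 38 others 3 were higher (7.89%, against 6.57% of all, a share near the background) and 6 lower (15.8%, against 8.08%). The medians with both pools at the minimum were 0.32 (shared) and 0.03 (others), against -0.02 and -0.05 for all such probe sets. Over the 21 shared and 44 other measured probe sets they were 0.32 and 0.00, against -0.02 and -0.06. Both kinds were measured for 8 genes, and the shared one had the higher log2 ratio in 6 of them, by 1.43 for Cald1 and 0.68 for Tpm2; Tpm1 (-0.64) and Srf (-0.26) went the other way. With the shared probe sets left out, 3 of 26 genes (11.5%) were at least 1.5-fold higher and 3 (11.5%) lower, against 9.25% and 8.59% of all 10639 genes, shares near the background. Their median stayed above that of all genes, at 0.17 against -0.04, with 19 of the 26 ratios (73.1%) above 0 against 46.3%.

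Probe sets of 1 gene also differed among themselves. Of 14 contraction genes with several measured probe sets, 5 (35.7%) spanned more than 1 on the log2 scale, against 11.3% of 5118 genes, though the contraction genes had a median of 3 probe sets and all genes a median of 2. These 5 were Cnn3 (a range of 2.47), Cald1 (1.43), Tpm1 (1.31), Tln1 (1.28) and Ppp1r12a (1.25). The signal ratio between 3′ and 5′ probe sets differed between the arrays, at 8.48 (control) and 10.5 (mutant) for beta-actin and at 3.28 and 4.98 for Gapdh. Its part in these differences was not tested.

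A further 61 genes of the same pathways were listed, and all 53 with a named probe set were measured. Among them 7 (13.2%) passed 1.5-fold upward and 2 (3.77%) downward, against 9.32% and 7.90% of all genes. The median log2 ratio of the 53 was 0.12, and -0.11 when centred on the spiked controls, where that of all genes was -0.25. Among receptors that make smooth muscle contract or relax, Oxtr, the oxytocin receptor, read 6.2 and 732, at least 9.07-fold higher, with a second probe set under the minimum at 56.4 and 62.6. Ednrb, an endothelin receptor, read 348 and 817, 2.35-fold higher. Ppp1r14a, the inhibitor of myosin phosphatase known as CPI-17, read 81.2 and 302, 3.72-fold higher on its only probe set. Prkg1, the cGMP-dependent kinase that relaxes smooth muscle, read 396.5 and 874, 2.20-fold higher.

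Vim, the intermediate filament of mesenchymal cells, read 6215 and 10912 on its brightest probe set (1.76-fold higher), yet 6111.5 and 6865.5 on the probe set without a shared suffix. Svil, an actin- and myosin-binding protein of the membrane, read 3889 and 6299 (log2 ratio 0.69), with 0.57 on its other probe set. Itga8, an integrin subunit of contractile stromal cells, read 1314 and 2118 (0.68), but 101.4 and 104.0 (0.03) on its other probe set. The calcium release channels Ryr2 and Ryr3 were lower, at 610.0 and 356 (1.71-fold) and 321 and 197 (1.63-fold). On their brightest probe sets none of the 8 measured transcription genes reached 1.5-fold, including the myocardin-related coactivators Mrtfa (-0.40) and Mrtfb (0.06). Mef2c was higher on all its measured probe sets, and more than 1.5-fold higher on a dimmer one. Gata6 went both ways, with a dimmer probe set more than 1.5-fold lower. The general motor genes Myh9 and Myh10 had log2 ratios of 0.08 and 0.12, and Actb and Actg1 -0.35 and -0.05.

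Markers of other cells moved between the same pools. Each count below stands against 9.32% of all genes at least 1.5-fold higher and 7.90% lower. Each median stands against -0.02 for all genes unless another value is given. All 7 listed oocyte markers and all 7 pregranulosa markers were measured, so the labelled tissue carried its defining markers in both pools, and all 14 ratios were below 0, with medians of -0.66 and -0.95. Interstitial fibroblast markers had 6 of 9 genes at least 1.5-fold higher (66.7%), a median of 0.76 and a summed signal of 66941 and 99769. Pdgfra, Col1a1 and Maf led them, with 1.13, 1.04 and 1.02. Of the 8 pericyte markers 2 were higher, Pdgfrb (1.80-fold) and Notch3 (1.59-fold), while Cspg4, Abcc9, Kcnj8, Rgs5, Mcam and Anpep had log2 ratios of 0.515, 0.21, 0.09, -0.03, -0.28 and -0.36. The pericyte median was 0.15, with 5 above and 3 below 0, and the summed signal was 6900 and 8998. Endothelial markers had 3 of 9 higher, Sox18, Pecam1 and Eng (0.84, 0.61 and 0.60), a median of 0.425 and summed signals of 3199 and 4054. Pecam1, at 68.8 and 116.7, passed the signal minimum through the mutant pool alone and was at least 1.45-fold higher. Of 6 measured macrophage markers 3 were higher, C1qb, Ptprc and Csf1r (1.15, 0.79 and 0.77). Cd68, Adgre1 and C1qc had log2 ratios of 0.06, -0.004 and -0.08, and C1qa was not measured. The macrophage median was 0.42, and the summed signals were 4186 and 6978, mostly from Csf1r at 3274 and 5611. All 4 measured markers of steroid-making cells were higher, with a median of 5.39 and a summed signal of 6172 and 39942. For the oviduct, uterus and mesonephros list, 6 of 12 were measured, 2 higher and 1 lower, with a median of 0.20 and summed signals of 2291.5 and 2522. The lower one was Ovgp1, at 83.7 and 33.3, measured through the control pool alone and at least 1.04-fold lower. Centred on the spiked controls the pericyte and oviduct medians were -0.08 and -0.03, against -0.25 for all genes. The part of these lists in the ratios of the contraction genes was not tested, and more contractile cells cannot be told apart from more RNA per cell in pooled tissue.

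Markers of striated muscle, which uses many of the same genes, were almost all under the signal minimum. Of its 16 listed markers only Mylpf reached the signal minimum, at 121 and 84.7. Acta1 and Actc1, the striated actins, had highest signals of 24.9 and 68.0, and Myod1, Myog, Ckm and Tnnt3 had 58.1, 38.8, 71.9 and 11.5.

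**Figure D4:**
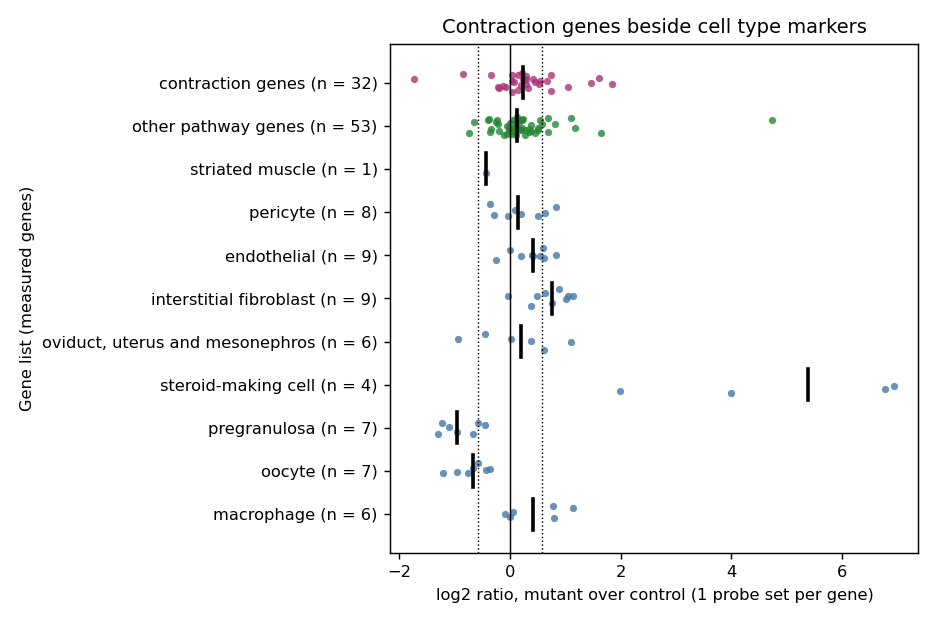
The log2 ratio of mutant over control for each measured gene of the contraction set, of the other pathway genes and of the marker lists (points, spread vertically for visibility), with the median of each list as a black bar and dotted lines at 1.5-fold. The contraction genes spread from -1.73 to 1.84 around a median of 0.24. The medians of the lists ran from -0.95 (pregranulosa) to 5.39 (steroid-making cells), with the fibroblast markers at 0.76.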

How the data were processed

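The file holds 1 column of probe-set signal intensities per array on a linear scale, as deposited by the authors. The submitters' processing notes name GCOS, with its version and settings not given in the sources used here. The mean without the lowest and highest 2% of values was 500.003 on both arrays, so they were taken to share a scale and used as deposited. Gene names came from the platform annotation, with 932 probe sets of several symbols and 64 control probe sets left out; the Entrez IDs of all 35 genes matched a RefSeq table. Ratios, counts and medians were computed with Python 3.11.15, numpy 2.4.6 and pandas 2.3.3, on code tested on simulated data. A gene was counted at 1.5-fold, 0.585 on the log2 scale. With 1 array per group nothing was tested, and the number of arrays limits the precision. All members were named; of other pathway genes, those past 1.5-fold; of marker lists, up to 3 with the largest ratios. Mrtfa, Mrtfb, Myh9, Myh10, Actb, Actg1 and some striated markers were added after their values were seen. The members and lists were chosen with earlier results of these data known. A planned protein comparison was not made.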

Additional observations from a re-analysis of the deposited data

How the results depend on the processing

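Alternatives covered the signal minimum, the pseudocount, the scaling and the probe set used per gene. Contraction genes at least 1.5-fold higher numbered 7 of 32 (21.9%, against 9.32% of all genes). With a signal minimum of 442, the 75th percentile, they were 4 of 23 (17.4%, against 7.07%), with Actg2, Smtn and Synpo2 no longer measured. When centred on the spiked controls they were 4 of 32 (12.5%, against 4.96%), without Acta2, Mylk and Smtn. Without shared probe sets they were 3 of 26 (11.5%, against 9.25%). The 2 that were lower (6.25%, against 7.90%) became 1 with both pools at the minimum (3.23%, against 6.40%) or values raised to it (3.12%, against 6.41%). They became 0 at the 75th percentile or with shared probe sets alone, against 5.71% and 8.05% of all genes. With the probe set of the highest single signal, an added choice, they were 4 (12.5%, against 8.12%). Centring on the spiked controls shifts every ratio alike, so the contraction median stayed 0.27 above that of all genes. The contraction median, 0.24 in the main setting, was 0.013 when so centred (all genes -0.25) and 0.17 without shared probe sets (all genes -0.04). That of the shared probe sets (0.32) was 0.0895 and that of the others (0.00) -0.23 when centred on the spiked controls, and the latter 0.11 with the minimum at the 75th percentile. For the 53 other pathway genes, centring on the spiked controls gave 4 higher, 5 lower and a median of -0.11 (all genes 4.96%, 18.8% and -0.25). Shared probe sets alone gave 2 of 27, 0 and 0.195 (all genes 8.51%, 8.05% and -0.02). The mean over probe sets gave a median of 0.0505 (all genes -0.05), and the 75th percentile or the higher pseudocount 1 lower (all genes 5.71% and 4.96%). Single contraction genes kept within the probe-set SD of the main value in 369 cases and moved further in 13. All of the latter were Des, Cald1, Tpm1, Tpm2, Pln, Ppp1r12a, Tln1 or Zyx. None of the 9 genes past 1.5-fold changed sign where measured. Many of the 369 cases could not move further. Another signal minimum leaves the ratio of a probe set that still passes unchanged, and both centrings shift ratios by less than that SD. A gene with 1 measured probe set keeps it under each choice of probe set. The count of 369 is therefore no measure of robustness. Apart from fewer genes measured, the causes of the moves were not tested. No paired analysis was possible because each group holds 1 array. The settings and the spread between probe sets cover no difference between animals, litters or hybridisations.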
